A study of Mus musculus with 3 samples.

Results

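Prostaglandins are made from arachidonic acid and act on neighbouring cells, and 10 mouse genes of this system were followed through the stromal cells of subcutaneous fat. The genes were taken as a given list, drawn up with earlier results of these data known. The list held the cyclooxygenases Ptgs1 and Ptgs2, the terminal synthases Ptgis, Ptges and Ptgds, the prostaglandin dehydrogenase Hpgd, and the receptors Ptger2, Ptger3, Ptger4 and Ptgfr. They are 10 of the 32285 genes in the count tables. The cells came from the inguinal depot of 3 wild-type C57BL/6J males aged 8 weeks, with 1 library of single cells per mouse and 1 condition. The depot had been digested with collagenase, and cells lacking CD31 (endothelial) and CD45 (leukocyte) had been sorted from what remained once the floating adipocytes were removed, a set of cells called the stromal vascular fraction. No treatment or genotype was compared, so every comparison here is between groups of cells from the same 3 mice.

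A cell was kept if over 500 genes were detected in it and under 5% of its UMIs (unique molecular identifiers, each counting 1 captured RNA) were mitochondrial, and 34577 cells passed. Progenitors were cells with at least 3 UMIs of Dpp4 and Pi16 together and at most 1 of Icam1 and Fabp4, which gave 19931 cells. Preadipocytes were cells with at least 4 UMIs of Icam1 and Fabp4 together and at most 1 of Dpp4, which gave 5735 cells. Regulatory cells had at least 1 UMI each of Clec11a and Fmo2 and at most 1 each of Fabp4 and Dpp4, which gave 1322 cells. Among the progenitors, 7564 cells held at least 3 UMIs of Krtdap, Dmkn and Sbsn together and are called Krtdap+ progenitors. The 90 cells that met both the progenitor and the regulatory gate, and the 174 that met both the preadipocyte and the regulatory gate, were left out of the sums, and 7853 cells met none.

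Prostaglandin synthesis begins when a phospholipase frees arachidonic acid from membranes. A cyclooxygenase, Ptgs1 or the inducible Ptgs2, turns it into prostaglandin H2, and a terminal synthase then decides which prostanoid is formed. The products leave the cell, bind G-protein-coupled receptors and are inactivated after uptake, with Hpgd taking the first step. In fat, prostaglandin E2 acting through Ptger3 is known to restrain lipolysis, prostacyclin is known to promote the differentiation of preadipocytes, and prostaglandin F2α acting through Ptgfr is known to block it.

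Both cyclooxygenase genes are transcribed from the plus strand. In the GENCODE annotation of GRCm38 Ptgs1 (ENSMUSG00000047250) lies at chr2:36230426-36252272 and Ptgs2 (ENSMUSG00000032487) at chr1:150100031-150108227. Their promoter windows are printed because the values of these paralogs differed within the progenitors, as described further on. Each window holds the 250 bases before the RefSeq start and the first 30 after it (GRCm38.p6, plus strand, 5′ to 3′), chr2:36230176-36230455 for Ptgs1 and chr1:150099781-150100060 for Ptgs2. Capitals mark matches to any of 8 motifs searched on both strands.
Ptgs1: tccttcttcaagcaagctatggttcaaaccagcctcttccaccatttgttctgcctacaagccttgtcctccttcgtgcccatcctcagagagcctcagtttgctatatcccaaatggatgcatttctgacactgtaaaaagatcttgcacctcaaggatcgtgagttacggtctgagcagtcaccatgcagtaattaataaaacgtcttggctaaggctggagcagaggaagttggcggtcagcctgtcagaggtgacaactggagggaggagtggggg
Ptgs2: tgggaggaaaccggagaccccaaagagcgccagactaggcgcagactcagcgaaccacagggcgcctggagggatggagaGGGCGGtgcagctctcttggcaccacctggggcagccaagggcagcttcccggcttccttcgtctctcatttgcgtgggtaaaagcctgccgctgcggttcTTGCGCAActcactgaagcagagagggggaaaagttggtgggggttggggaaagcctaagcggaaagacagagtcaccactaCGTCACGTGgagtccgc
The motifs were CGTCA (the core of a cyclic AMP response element), TGANTCA (AP-1), TTGCGCAA (C/EBP), CACGTG (E-box), TATAAA (the TATA box), CCAAT (bound by NF-Y), GGGCGG (GC box) and AAAGGTCA (the site bound by NR4A receptors). The Ptgs1 window held none of them. The Ptgs2 window held GGGCGG 165 to 170 bases before the start, TTGCGCAA 62 to 69 bases before it, and CGTCA and CACGTG, which overlap each other, at bases 14 to 18 and 17 to 22 after it. Of the 32851 windows of this length in the table, 34.7% held GGGCGG, 0.18% TTGCGCAA, 19.9% CGTCA and 6.79% CACGTG. Among the 9 listed genes with a window, only Ptgs2 held TTGCGCAA, CGTCA or CACGTG, and none held AAAGGTCA, which was in 1.45% of all windows. These are matches of letters and not measured sites. Ptgis had no window.

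The libraries held 95899433, 79801002 and 100846072 UMIs in mice 1, 2 and 3. The median kept cell held 7393, 12193 and 6667 UMIs, so mouse 2 had fewer and deeper cells. Regulatory cells were the shallowest gate in each mouse, with medians of 4945, 10104.5 and 4575 UMIs. The medians were 7329, 12052 and 6690 in progenitors and 8083, 12977 and 7296 in preadipocytes. Libraries shared between 52 and 81 cell barcodes. The gates were checked with 6 marker genes each that had no part in them. All 6 progenitor markers (Cd55, Anxa3, Wnt2, Sema3c, Ly6c1 and Cd34) were called lower in preadipocytes, and all 6 preadipocyte markers were called higher there. All 6 regulatory markers were called higher in regulatory cells than in progenitors. The lists were not confined to their gates. Over progenitors, 5 of 6 preadipocyte markers were called higher in regulatory cells. Of the 6 regulatory markers, 4 were called higher and 1 lower in preadipocytes than in progenitors. Of the 6 progenitor markers, 4 were called higher and 1 lower in regulatory cells than in preadipocytes. The regulatory markers did not separate every sum, since Igfbp3 was lower in the regulatory cells than in the progenitors of mouse 1 (54.1 against 59.7 CPM, counts-per-million, the UMIs of a gene scaled to the group's total), and Cygb was not called between regulatory cells and preadipocytes (log2 0.20, adjusted p = 0.11). Defining markers of other cells were low but not absent. Summed over 6 endothelial genes the preadipocyte gate held 31.1, 56.3 and 3.83 CPM in mice 1, 2 and 3 against at most 8.68 in progenitors. The 6 mural genes summed to 28.7 to 35.5 in preadipocytes and to 6.51 to 9.36 in progenitors, and the 6 leukocyte genes to 13.9 to 16.2 in regulatory cells and to 3.92 to 8.99 in progenitors. The 6 epithelial genes summed to 111 CPM in the regulatory cells of mouse 3 and to 0 in those of mice 1 and 2. The 6 mesothelial genes summed to 32.5 CPM in the regulatory cells of mouse 3 and to 0 and 2.70 in those of mice 1 and 2. The 6 Schwann cell genes were alike in the gates, with 23.7 to 30.8 CPM in progenitors, 24.6 to 38.2 in preadipocytes and 23.2 to 33.0 in regulatory cells.

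UMIs were summed per mouse and group, and levels are given as CPM of the group's total in each mouse. Differences are log2 fold changes from edgeR's quasi-likelihood test with the mouse as a block, called at a Benjamini-Hochberg adjusted p under 0.05 over all genes tested. The groups were cut from the same cells, so genes that go with the gate genes are called easily, and each count of listed genes is set beside the share of all genes called. Of the 10 genes, 9 passed the filter on low counts in the comparisons of the 3 gates, and Ptgds did not. Between preadipocytes and progenitors, 8 of these 9 were called, 5 higher and 3 lower in preadipocytes, while 55.6% of 13701 genes were called (26.7% higher and 28.9% lower). Between regulatory cells and progenitors, 6 were called, 2 higher and 4 lower, against 42% of all genes (18.1% higher and 23.9% lower). Between regulatory cells and preadipocytes, 6 were called, 2 higher and 4 lower, against 25.5% of all genes (11.9% higher and 13.5% lower). In both comparisons of regulatory cells, 1 of the 2 genes called higher was Ptger2, which passed the filter only through the regulatory cells.

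The cyclooxygenases and the prostacyclin synthase were highest in progenitors, whereas the E synthase, the dehydrogenase and the receptors Ptger3 and Ptgfr were highest in preadipocytes, and Ptger4 was higher in both other gates than in progenitors. The median log2 fold change of the tested genes between preadipocytes and progenitors was 1.36, beside 0.0038 over all genes tested. It was -0.70 in regulatory cells over progenitors and -0.23 in regulatory cells over preadipocytes, beside -0.061 and -0.048. As the genes went in both directions, the medians describe no shared shift.

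Ptgs2 was high in the progenitors of every mouse, at 1136, 1352 and 1259.6 CPM. The preadipocytes held 91.5, 118 and 175 CPM and the regulatory cells 115, 131 and 168 CPM. The progenitors of no mouse overlapped either of the other groups, and the other groups overlapped each other. The log2 fold change was -3.39 ± 0.13 (SE) in preadipocytes and -3.23 ± 0.14 in regulatory cells (n = 3 mice, edgeR adjusted p = 4.3e-10 and 3.5e-09), a 10.5-fold and a 9.36-fold lower level. Regulatory cells and preadipocytes were not told apart (0.17, 95% interval -0.13 to 0.46). Of the 229533 Ptgs2 UMIs in kept cells, 83.1% lay in progenitors.

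Progenitors were far from uniform in Ptgs2. The median progenitor held 5, 10 and 6 UMIs in mice 1, 2 and 3, while the 10th percentile was 0 in each and the 90th was 21, 41 and 20. The fullest cell of each mouse held 85, 150 and 69 UMIs. Ptgs2 is an early response gene, and a list of 24 immediate early and stress genes known to rise during tissue dissociation was summed beside it. That list summed to 28141 to 31417 CPM in progenitors and to 36443 to 44115 CPM in preadipocytes. Its genes were mixed, with 15 of 24 called higher and 5 lower in preadipocytes, beside 26.7% and 28.9% of all genes. The early response genes Nr4a3 and Fosl1 went the other way from that sum. Their summed level was 378, 495 and 587 CPM in the progenitors of mice 1, 2 and 3 and 33.8, 56.4 and 86.1 CPM in the preadipocytes. At least 2 UMIs of them were present in 45.8% to 59.3% of progenitors and in 5.09% to 13.0% of preadipocytes. The part of the dissociation in the Ptgs2 level was not tested.

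The preadipocytes held Ptgs2 at 8.05%, 8.73% and 13.9% of the progenitor level in mice 1, 2 and 3. The progenitor marker Anxa3 stood at 4.21% to 7.32% in the same sums, Sema3c at 4.71% to 7.18%, Wnt2 at 8.14% to 10.97% and Cd55 at 10.9% to 13.7%. The other markers of the list stood higher, Ly6c1 at 33.4% to 36.5% and Cd34 at 41.3% to 49.7%. The 6 markers thus ran from 4.21% to 49.7%. That range is too wide to serve as a gauge for the Ptgs2 percentages, which lay within it. The part of free RNA or of mixed droplets was not tested.

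Ptgs1, the constitutive cyclooxygenase of textbook accounts, was also highest in progenitors. It stood at 32.0, 30.1 and 39.6 CPM in progenitors, at 2.06, 2.24 and 1.84 CPM in preadipocytes and at 2.81, 6.49 and 9.30 CPM in regulatory cells. The regulatory value of mouse 1 rests on 4 UMIs. The groups did not overlap. The log2 fold change was -4.07 ± 0.14 in preadipocytes and -2.38 ± 0.20 in regulatory cells (edgeR adjusted p = 2.9e-10 and 1.1e-06). Regulatory cells held more than preadipocytes (1.68 ± 0.30, adjusted p = 0.0012), and this difference lost its call when cells were thinned to 3000 UMIs (1.31, adjusted p = 0.084).

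**Figure D1:**
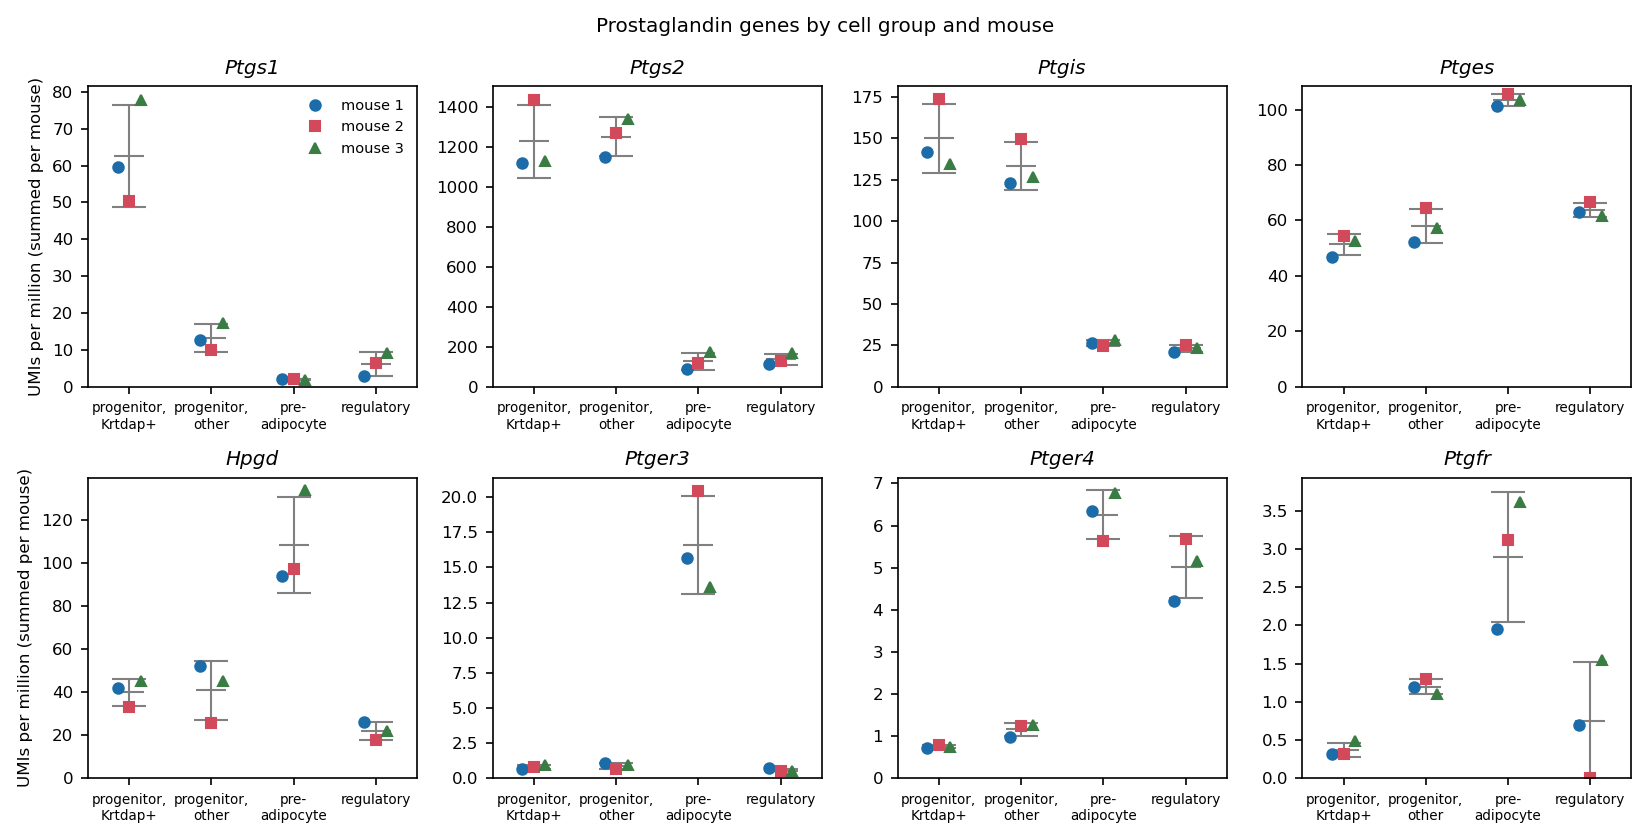
Levels of 8 prostaglandin genes in CPM (vertical axes, linear from 0, scaled per gene) in 4 groups of cells; each symbol is the sum of 1 mouse, and the bars are the mean ± SD over 3 mice. Ptgs2 and Ptgis are high in both progenitor groups, Ptgs1 in the Krtdap+ group, and Ptges, Hpgd, Ptger3 and Ptgfr are highest in preadipocytes.

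The terminal synthases split between the groups. Ptgis, the prostacyclin synthase (ENSMUSG00000017969, chr2:167191805-167240604, minus strand), went with the cyclooxygenases. Progenitors held 131, 162 and 129.6 CPM, preadipocytes 26.4, 24.3 and 28.3 CPM, and regulatory cells 21.1, 25.4 and 23.2 CPM. The progenitors stood above both other groups in each mouse. The log2 fold change was -2.47 ± 0.088 in preadipocytes and -2.60 ± 0.12 in regulatory cells (edgeR adjusted p = 2.9e-10 and 8.7e-09).

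Ptges, the inducible microsomal prostaglandin E synthase (ENSMUSG00000050737, chr2:30889471-30929863, minus strand), went the other way. It stood at 50.1, 59.5 and 55.6 CPM in progenitors, at 101, 106 and 104 CPM in preadipocytes and at 63.2, 66.5 and 61.5 CPM in regulatory cells. No preadipocyte sum overlapped another group. The rise over progenitors was 1.81-fold (log2 0.85 ± 0.060, adjusted p = 1.2e-07), and regulatory cells lay below preadipocytes (-0.66 ± 0.077, adjusted p = 4.9e-05). Between regulatory cells and progenitors the difference was small and missed the threshold (0.19, 95% interval 0.017 to 0.36, adjusted p = 0.073), and it was past it under 6 of the 15 alternatives tried, with 0.21 to 0.36. Of all Ptges UMIs, 44.8% lay in progenitors and 27.7% in preadipocytes, while progenitors held 78.5% of those of Ptgis.

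Ptgds, which makes prostaglandin D2 outside blood cells (ENSMUSG00000015090, chr2:25466709-25470046), was almost absent. The kept cells of the 3 mice held 7 UMIs of it in all, of which 3 were in progenitors, 0 in preadipocytes and 0 in regulatory cells. A count of 0 allows up to 0.163, 0.164 and 0.221 CPM in the preadipocytes of mice 1, 2 and 3, by 3 counts of the total, which covers counting error alone.

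Hpgd, the dehydrogenase that inactivates prostaglandins E2 and F2α (ENSMUSG00000031613, chr8:56294585-56321043), was highest in preadipocytes. It stood at 94.1, 97.3 and 134 CPM there, at 47.9, 29.3 and 45.1 CPM in progenitors and at 26.0, 17.6 and 22.2 CPM in regulatory cells. The groups did not overlap, although the progenitors of mouse 2 came near to the regulatory cells of mouse 1. Hpgd was 2.57-fold higher in preadipocytes than in progenitors (log2 1.36 ± 0.12, edgeR adjusted p = 7.3e-07). It was lower in regulatory cells than in progenitors (-0.93 ± 0.20, adjusted p = 0.0023) and than in preadipocytes (-2.29 ± 0.18, adjusted p = 1.9e-06).

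The receptors were all of low level, and most of their UMIs lay outside the progenitors. Ptger3, the inhibitory E2 receptor EP3 (ENSMUSG00000040016, chr3:157566892-157645888), held 15.7, 20.4 and 13.6 CPM in preadipocytes. Progenitors held 0.911, 0.73 and 0.923 CPM, and regulatory cells 0.702, 0.541 and 0.517 CPM, from 1, 2 and 1 UMIs. Preadipocytes were above both by far more than the spread between mice, with a log2 fold change of 4.16 ± 0.16 over progenitors (17.9-fold, edgeR adjusted p = 6.6e-10). Against regulatory cells the ratio of pooled rates was 29.7, with an exact 95% interval of 11.6 to 109 for counting error only, since the regulatory cells held 4 UMIs (edgeR log2 -4.86 for regulatory cells over preadipocytes, adjusted p = 2.1e-06). Regulatory cells and progenitors were not told apart (-0.70, 95% interval -2.12 to 0.72).

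Ptger4, the stimulatory E2 receptor EP4 (ENSMUSG00000039942, chr15:5206661-5244187), was raised in both other groups. Progenitors held 0.874, 1.02 and 1.07 CPM, preadipocytes 6.36, 5.63 and 6.78 CPM and regulatory cells 4.21, 5.68 and 5.17 CPM. The progenitors stood apart and the other groups overlapped. The log2 fold change was 2.60 ± 0.17 in preadipocytes and 2.38 ± 0.27 in regulatory cells (adjusted p = 4.6e-08 and 2.0e-05), and these groups did not differ beyond their error (-0.23, 95% interval -0.74 to 0.28). Of the 21 UMIs in the regulatory cells of mouse 2, 10 came from 1 cell.

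Ptger2, the other stimulatory E2 receptor (ENSMUSG00000037759, chr14:44988195-45003820), had only 28 UMIs in all kept cells. Regulatory cells held 1, 6 and 1 UMIs, preadipocytes 2, 3 and 1, and progenitors 1, 1 and 3, from far larger totals. The pooled rate in regulatory cells was 34.9 times that in progenitors (exact 95% interval 10.1 to 136, counting error only) and 9.5 times that in preadipocytes (2.89 to 33.2). edgeR called both (log2 4.66 ± 0.92 and 3.07 ± 0.87, adjusted p = 0.0014 and 0.022), the second not without the low-count filter (adjusted p = 0.072). Ptger2 passed that filter only through the regulatory cells, at 0.702, 1.62 and 0.517 CPM. Preadipocytes held at most 0.164 CPM and progenitors at most 0.0486 CPM. The group in which it was high thus let it be tested, and the calls are not independent of that. Of the 8 UMIs in regulatory cells 6 came from mouse 2, and the gene did not pass the filter when any mouse was left out.

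Ptgfr, the receptor for prostaglandin F2α (ENSMUSG00000028036, chr3:151796502-151837630), stood at 1.96, 3.12 and 3.61 CPM in preadipocytes. It held 0.837, 0.808 and 0.875 CPM in progenitors and 0.702, 0 and 1.55 CPM in regulatory cells, from 1, 0 and 3 UMIs. Preadipocytes were above progenitors in each mouse (log2 1.69 ± 0.31, adjusted p = 5.4e-04). The 3 UMIs of the regulatory cells of mouse 3 came from 1 cell. The lower level in regulatory cells than in preadipocytes (-2.28 ± 0.69, adjusted p = 0.030) lost its call without mouse 2, whose count was 0 (-1.17, adjusted p = 0.30). The call was also lost without the block, with cells in several gates kept and with thinned cells. It was lost as well among cells without Nr4a3 and Fosl1 UMIs.

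**Figure D2:**
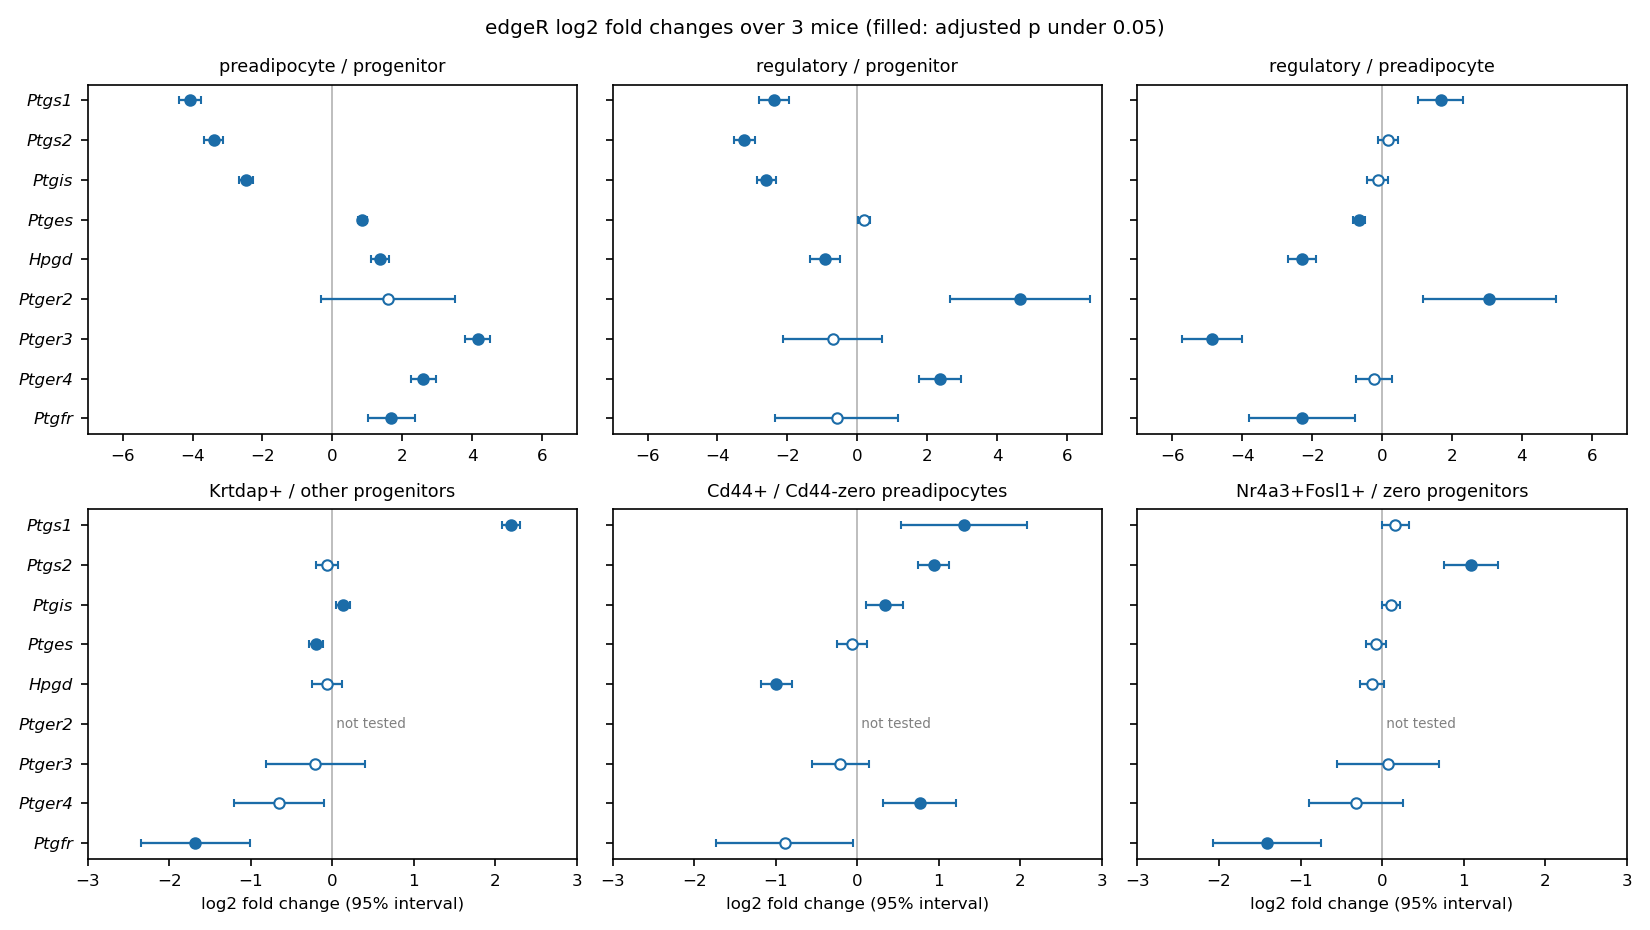
edgeR log2 fold changes of 9 prostaglandin genes (horizontal axes, points with 95% intervals, n = 3 mice) in 6 comparisons, each of the first group over the second; filled points passed an adjusted p under 0.05. The first panel shows Ptgs1, Ptgs2 and Ptgis on the left of 0 and the receptors, Ptges and Hpgd on the right.

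Cells bearing markers of other types were then removed. When cells with at least 3 UMIs of an endothelial, leukocyte, mural or epithelial list were left out, a choice made after seeing the data, Ptgs2 in preadipocytes against progenitors was at -3.39, Ptger3 at 4.18 and Ptger4 at 2.49. All 8 calls between preadipocytes and progenitors held under each of the 15 alternatives run. So did those between regulatory cells and progenitors other than that of Ptger2. Ptger2 was tested in 10 of 16 settings, the main one included, and was called in each of these. It passed the filter only through the regulatory cells, so these calls cannot show its stability.

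Within the progenitors Ptgs1 differed by the Krtdap state. Krtdap+ progenitors were gated on the summed RNA of Krtdap, Dmkn and Sbsn, which code for epidermal-type secreted proteins. Sbsn was the most abundant of these (mean 1065 CPM, against 155 for Krtdap and 301 for Dmkn), and a cell can pass by it alone. Krtdap+ progenitors held Ptgs1 at 59.7, 50.5 and 77.8 CPM, and the other progenitors at 12.7, 9.85 and 17.2 CPM. The groups did not overlap, and the difference was 4.58-fold (log2 2.20 ± 0.052, edgeR adjusted p = 1.1e-11). Krtdap+ progenitors held 66.7% of all Ptgs1 UMIs. The value stayed between 2.07 and 2.26 on the log2 scale under every alternative run, thinned cells included.

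Ptgs2 was not called in this split. Krtdap+ progenitors held 1117, 1437 and 1127 CPM and the others 1149, 1269 and 1337 CPM. The groups overlapped, and the difference was -0.068 on the log2 scale (95% interval -0.20 to 0.065, adjusted p = 0.52). It was called lower without mouse 2 (-0.19, adjusted p = 0.0014) and with stricter gates (-0.18, adjusted p = 0.034), and lay at 0.042 without mouse 3. In all, 4 of the 8 genes tested were called in this comparison, 2 higher and 2 lower, beside 20.1% of 13134 genes (9.4% higher and 10.7% lower).

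The other called genes differed less. Ptgis was 0.13 ± 0.039 higher on the log2 scale (adjusted p = 0.026) and Ptges 0.20 lower (SE 0.039, adjusted p = 0.0020), both in each mouse. Neither was called by DESeq2 (adjusted p = 0.15 and 0.073), and Ptgis lost its call without mouse 1 (0.12, adjusted p = 0.11) and without mouse 2 (0.094, adjusted p = 0.13). Ptgfr was at 0.318, 0.314 and 0.483 CPM in Krtdap+ cells and at 1.20, 1.30 and 1.104 CPM in the others (-1.68 ± 0.31, adjusted p = 0.0015), from 24 and 106 UMIs.

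Ptgs1 rose step by step with the UMIs of Krtdap, Dmkn and Sbsn. Progenitors without any of these UMIs held 9.86, 7.85 and 12.7 CPM of Ptgs1 in mice 1, 2 and 3. Progenitors with 10 to 29 of them held 78.6, 49.9 and 99.7 CPM, and those with 30 or more held 153, 114 and 209 CPM. Ptgs2 was lowest in the topmost bin in mice 1 and 3, at 818 and 765 CPM, and in mouse 2 the lowest value was that of cells with none of these UMIs, at 1194 CPM.

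A second split of the progenitors used the early response factors Nr4a3 and Fosl1, with at least 2 UMIs of both together against 0. Ptgs2 stood at 1447, 1758 and 1403 CPM in the positive cells and at 738, 683 and 942 CPM in those at 0. The groups did not overlap, and the difference was 2.13-fold (log2 1.09 ± 0.14, edgeR adjusted p = 0.0038). Over 5 bins it rose at each step in each mouse, from 738, 683 and 942 CPM to 1768, 2051 and 1694 CPM in cells with 10 or more of these UMIs. The positive cells were somewhat deeper, with medians of 7732, 12393 and 6967 UMIs against 6841, 11513 and 5998. Thinned to 3000 UMIs the difference was 1.08, and in Krtdap-negative progenitors alone it was 1.17.

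Ptgs1 was not called in this split. It stood at 32.8, 29.9 and 38.7 CPM in the positive cells and at 30.8, 27.5 and 40.4 CPM in those at 0 (0.16, 95% interval -0.0061 to 0.33, adjusted p = 0.16), and it was called only without the low-count filter (0.20, adjusted p = 0.047). Of 8 genes tested, 2 were called, 1 higher and 1 lower, beside 18.4% of 13022 genes (10.7% higher and 7.66% lower). The other was Ptgfr, at 0.404, 0.525 and 0.529 CPM against 1.39, 1.26 and 1.53 CPM (-1.41 ± 0.28, adjusted p = 0.016), which missed the threshold without mouse 1 (-1.26, adjusted p = 0.062) and by DESeq2 (adjusted p = 0.069). The dissociation list summed to less in the positive cells of each mouse, at 25808 to 29433 CPM against 30445 to 34695 CPM. Of its 24 genes, 5 were called higher and 11 lower, beside 10.7% and 7.66% of all genes.

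The gates were also compared among cells in which this state was not detected, although 0 UMIs can be a missed RNA. Among cells with no Nr4a3 or Fosl1 UMI, a choice made after seeing the data, Ptgs2 was still lower in preadipocytes than in progenitors, by -2.91 on the log2 scale (adjusted p = 3.6e-11). In the same cells regulatory cells exceeded preadipocytes (0.49, adjusted p = 0.0085), which was not called over all cells.

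**Figure D3:**
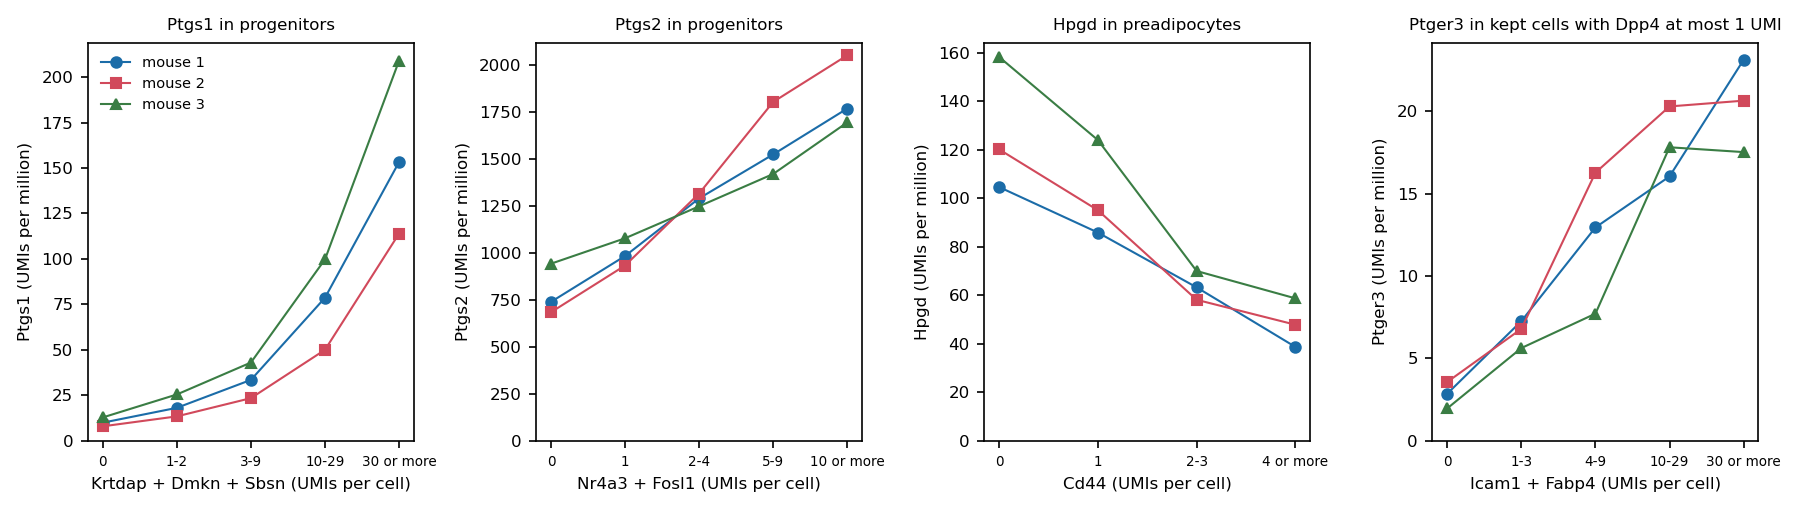
Levels in CPM (vertical axes, linear from 0) of 4 prostaglandin genes in cells binned by the UMIs of other genes per cell (horizontal axes, unequal bins); each line is 1 mouse. In progenitors Ptgs1 rises with Krtdap, Dmkn and Sbsn, and Ptgs2 with Nr4a3 and Fosl1, Hpgd falls in preadipocytes with Cd44, and Ptger3 is lowest in cells without Icam1 and Fabp4.

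The study sorts ICAM1-positive cells by CD44 on the surface, and also finds these populations as clusters with further markers. It names the CD44-high cells pro-preadipocytes. Here the preadipocyte gate was split by Cd44 RNA, into cells with at least 2 Cd44 UMIs and cells with 0. A cell can enter the gate by Fabp4 alone and 0 UMIs can be a missed RNA, so these groups need not match the study's. The Cd44-positive cells held more Ptgs2 and less Hpgd. Ptgs2 stood at 130.2, 185 and 233 CPM in them and at 77.2, 86.9 and 146 CPM in the cells at 0 (log2 0.94 ± 0.088, edgeR adjusted p = 2.3e-05). It was higher in each mouse, although the values of different mice overlapped. At least 2 UMIs of Nr4a3 and Fosl1 were present in 8.84%, 27.2% and 26.9% of the positive cells. Among the cells at 0 the shares were 3.79%, 7.80% and 8.12%. The positive cells were also deeper, with medians of 8861.5, 13729 and 7578.5 UMIs against 7863, 12606.5 and 7118. The part of the Nr4a3 and Fosl1 state in the Ptgs2 difference was not tested. Hpgd stood at 58.2, 53.4 and 67.5 CPM in the positive cells and at 105, 120.1 and 158 CPM in those at 0, without overlap (-0.99 ± 0.087, adjusted p = 1.6e-05).

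Hpgd fell at each step of Cd44 in each mouse. It reached 38.6, 47.8 and 58.7 CPM in the preadipocytes with 4 or more Cd44 UMIs. Of 8 genes tested, 5 were called, 4 higher and 1 lower, beside 17.8% of 11606 genes (11.9% higher and 5.89% lower). Without any 1 mouse the calls of Ptgis (0.34 ± 0.10, adjusted p = 0.045) and Ptger4 (0.77 ± 0.20, adjusted p = 0.023) were lost, and that of Ptgs1 (1.31 ± 0.35, adjusted p = 0.024) was lost without mouse 2 and without mouse 3, so that 2 to 3 calls remained. Ptgs1 rested on 37 UMIs in the positive cells. Ptges, Ptger3 and Ptgfr were not called (-0.067, -0.21 and -0.89, adjusted p = 0.63, 0.41 and 0.14).

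The endothelial list went with this split. It summed to 42.5, 88.3 and 5.84 CPM in the preadipocytes without Cd44 UMIs and to 1.48, 2.39 and 0.808 CPM in the Cd44-positive ones. With the cells that held at least 3 UMIs of another cell type left out, Ptgs2 was at 0.91 and Hpgd at -1.003.

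The rest of the pathway was read from 5 lists with 40 genes, 1 of them not analysed here, of which 27 passed the filter in the comparisons of the gates. Between preadipocytes and progenitors, 7 were called higher and 10 lower, and the median log2 fold change was -0.12, while 55.6% of all genes were called (26.7% higher and 28.9% lower). Between regulatory cells and progenitors, 6 were called higher and 10 lower (median -0.12), beside 18.1% and 23.9% of all genes. Between regulatory cells and preadipocytes, 3 were called higher and 7 lower (median 0.0027), beside 11.9% and 13.5%. The median over all genes tested was 0.0038, -0.061 and -0.048 in the same order.

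Upstream of the cyclooxygenases, 6 of 10 genes of arachidonate release were tested, and 4 were called lower and 1 higher in preadipocytes than in progenitors, beside 28.9% and 26.7% of all genes. Pla2g4a, the cytosolic phospholipase A2, stood at 75.5, 57.0 and 91.5 CPM in progenitors, at 24.2, 17.9 and 30.3 CPM in preadipocytes and at 19.7, 21.1 and 32.0 CPM in regulatory cells (-1.69 ± 0.067 and -1.59 over progenitors, adjusted p = 6.5e-10 and 8.0e-08). Mgll, the monoglyceride lipase that frees arachidonate from an endocannabinoid, stood at 132, 127 and 160 CPM in progenitors and at 19.99, 22.0 and 15.8 CPM in preadipocytes (-2.90). Mgll stood at 20.4, 7.30 and 13.9 CPM in regulatory cells (-3.55). Both genes were highest in progenitors, as were Ptgs2 and Ptgis. Plaat3, a phospholipase of adipocytes, went the other way (0.71 in preadipocytes, adjusted p = 2.8e-07).

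Of 10 other synthase genes 7 were tested, and 2 were called higher and 2 lower in preadipocytes, with 55.6% of all genes called. Akr1c18, which acts on prostaglandins and on progesterone, held 146, 176 and 159 CPM in progenitors but 3.37, 1.70 and 5.31 CPM in preadipocytes (-5.65, adjusted p = 1.3e-09). Within progenitors it was also higher in Krtdap+ cells, with 223, 252 and 228 CPM against 92.0, 100.3 and 119 CPM (1.14, adjusted p = 2.9e-08), as was Ptgs1. Prxl2b, a prostaglandin F synthase, was lower in preadipocytes (-1.01), while Akr1b3, an aldose reductase with F synthase activity, was higher (0.94), with 163, 160 and 161 CPM against 85.4, 84.9 and 72.8 CPM.

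Of the 7 genes of uptake, export and breakdown 6 were tested, and 1 was called higher and 2 lower in preadipocytes, again beside 55.6% of all genes. Slco2a1, the prostaglandin transporter, stood at 54.2, 52.9 and 51.2 CPM in progenitors and at 78.6, 54.0 and 70.1 CPM in preadipocytes (log2 0.28, adjusted p = 0.010), but at 14.04, 11.4 and 13.9 CPM in regulatory cells (-2.04 over progenitors and -2.33 over preadipocytes, adjusted p = 4.7e-07 and 3.5e-07). Like Hpgd, which acts after uptake, it was thus lowest in regulatory cells, and unlike Hpgd it was higher in Cd44-positive preadipocytes (1.45, adjusted p = 1.3e-06). The exporter Abcc4 was also lower in regulatory cells than in progenitors (-0.83, adjusted p = 0.0074), and the reductases Ptgr1 and Zadh2 were lower in preadipocytes than in progenitors (-0.53 and -0.87).

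Of 6 other receptor genes 4 were tested, and 2 were called higher and 1 lower in preadipocytes, against 26.7% and 28.9% of all genes. The prostacyclin receptor Ptgir stood at 0.688, 0.443 and 0.616 CPM in progenitors, at 14.9, 14.2 and 15.5 CPM in preadipocytes and at 5.62, 8.38 and 11.4 CPM in regulatory cells (4.59 and 3.86 over progenitors, adjusted p = 3.4e-10 and 2.9e-07). It was lowest in progenitors, where Ptgis, which makes its ligand, was highest. In the leukotriene list 4 of 7 genes were tested, and 3 were called higher in regulatory cells than in progenitors and 0 lower, against 18.1% and 23.9% of all genes. These were Alox5ap, Alox12 and Ltc4s, named after their values were seen, and none exceeded 5.41 CPM in the regulatory cells of any mouse. Alox5ap and Alox12 were not called in preadipocytes over progenitors (0.66 and -0.32, edgeR adjusted p = 0.45 and 0.82). They may have passed the low-count filter through the regulatory cells alone, so the count is not a result about the list. Ltc4s was raised more in preadipocytes (4.78 over progenitors, adjusted p = 1.1e-09) than in regulatory cells (3.59).

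**Figure D4:**
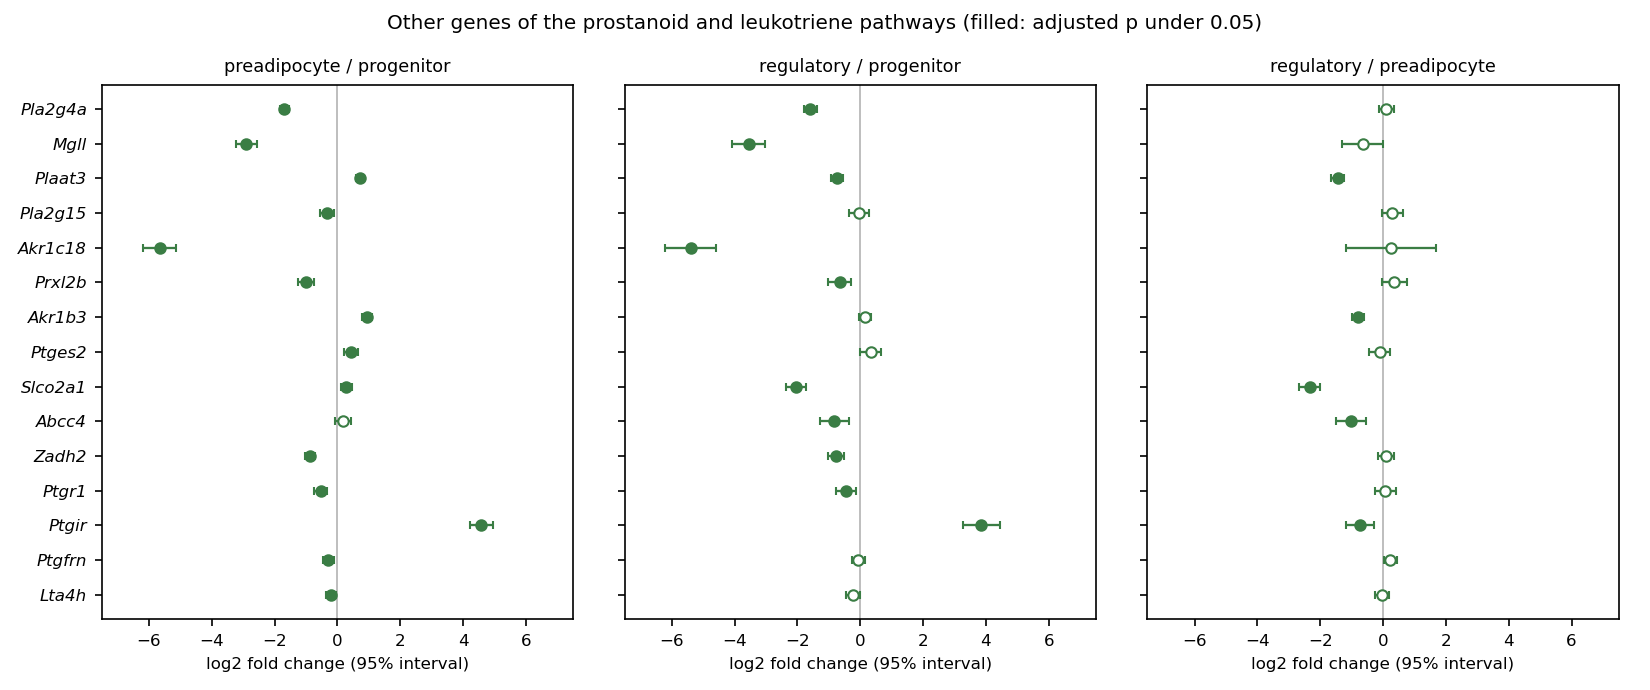
edgeR log2 fold changes (horizontal axes, points with 95% intervals, n = 3 mice) of 15 further genes of arachidonate release, synthesis, transport, breakdown and reception in the 3 comparisons of the gates; filled points passed an adjusted p under 0.05. Akr1c18 and Mgll lie farthest to the left and Ptgir farthest to the right in both comparisons with progenitors.

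The genes whose pattern was most like that of each listed gene were sought over 12 sums (3 mice by Krtdap+ progenitors, other progenitors, preadipocytes and regulatory cells), among 7645 genes, by Pearson's r of log2(CPM + 1). The sums of a mouse share a library, and genes are not independent, so r is a description. Nox4 (0.992) and Pxn (0.988) were nearest to Ptgs2, Rab4a (0.978) and Bmp3 (0.971) to Ptgs1, and Axl and Il18 (both 0.995) to Ptgis. On the preadipocyte side, the lipid droplet genes Plin4 (0.986) and Plin2 (0.981) were nearest to Ptger3, Plvap (0.992) and Slc1a3 (0.986) to Ptger4, Btg1 (0.979) and Cmpk1 (0.977) to Ptges, and C430049B03Rik (0.970) and Epb41l1 (0.969) to Hpgd. Ptgfr had the weakest match, with Tex2 (0.889) and Rab31 (0.888).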

How the data were processed

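The deposited files hold UMI counts per gene and cell for each of 3 mice, which the authors made with Cell Ranger. Per the labels this was Cell Ranger 2.1.1 with genome build mm10, whereas the matrix header names 4.0.0. The study's methods name a later release of the header's series, not the release of the labels. No column held values of other samples. The filters and gates are those given with the results. No doublet caller was run, and leaving out the deepest 5% of cells of each library was an alternative. UMIs were summed per mouse and group and tested in edgeR 4.0.16 (R 4.3.3) with filterByExpr, TMM and the mouse as a block, since every group came from the same animals. Deviations of sums of the same mouse from the group mean correlated at 0.133 to 0.643 over 13713 genes, and those of different mice at -0.506 to 0.113. Taking deviations from a mean over 3 mice pulls the latter values down. Each group has 3 animals. Intervals on counts cover counting error only.

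The alternatives were other scalings, no low-count filter, DESeq2 1.42.0, no block, each mouse left out, a mitochondrial limit of 10%, cells in several gates kept, gates raised by 2 UMIs, cells thinned to 3000 UMIs, and 3 chosen after seeing the data. The fits were tested on simulated data. The genes and lists were chosen with earlier results of these data known. Besides the 10 genes, up to 4 called genes a list with a mean of 10 CPM in a gate were named, largest change first, and the 2 genes most like each listed gene. Figures were drawn with matplotlib 3.10.9.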

Additional observations from a re-analysis of the deposited data

How the results depend on the processing

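With only 3 mice, small differences are weakly resolved, and Ptger2, Ptgds and the regulatory levels of Ptger3 and Ptgfr rest on few UMIs. Of the alternative values of genes called in a comparison, 386 kept their call and direction, 49 lost the call and 0 reversed. All 8 calls of preadipocytes against progenitors and all 6 of regulatory cells against progenitors held wherever the gene was tested. For Ptger2 over progenitors that was only 10 of 16 settings, and it passed the filter only through the regulatory cells. Its calls therefore cannot show stability. Only 3 of 6 calls between regulatory cells and preadipocytes held under every alternative, and 1 of 4 by Krtdap (Ptgs1). By Cd44 0 of 5 held under every alternative, and by Nr4a3 and Fosl1 0 of 2. Unless a reason is given, the cause was not tested.

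Without the replicate block, which ignores the pairing by mouse, the number of the listed genes called was 1 by Krtdap, 0 by Cd44 (4 at an unadjusted p under 0.05, and 2 by DESeq2 with the block) and 0 by Nr4a3 and Fosl1 (2 unadjusted, and 1 by DESeq2 with the block). Ptgs2 then stood at 1.08 (adjusted p = 0.11) by Nr4a3 and Fosl1 and at 0.92 (adjusted p = 0.32) by Cd44, and Hpgd at -1.01 (adjusted p = 0.12) by Cd44. Over all genes the calls without the block numbered 3990, 3124 and 1530 between the gates, in the order of the results, and 74, 1 and 11 in the Krtdap, Cd44 and Nr4a3 and Fosl1 splits.

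With 1 mouse left out, 8 to 8, 5 to 5 and 4 to 5 listed genes were called between the gates, 3 to 5 by Krtdap, 2 to 3 by Cd44 and 1 to 3 by Nr4a3 and Fosl1. Thinned cells gave 3 calls between regulatory cells and preadipocytes, 2 by Krtdap, 3 by Cd44 and 1 by Nr4a3 and Fosl1. DESeq2 gave 2, 2 and 1 in the 3 splits. By Cd44, stricter gates and leaving out the deepest cells gave 2 each. With library size alone, 4 were called by Nr4a3 and Fosl1.

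The following values changed sign, and none was called in the results or where its sign had changed. Thinned cells gave 0.15 for Ptger3 in regulatory cells over progenitors, 0.018 for Ptger4 over preadipocytes and -0.036 for Ptgs1 by Nr4a3 and Fosl1. Ptgfr in regulatory cells over progenitors ranged from -2.12 to 0.43 with 1 mouse left out and was 0.33 with cells in several gates kept. By Krtdap, with 1 mouse left out, Ptgs2 ranged from -0.19 to 0.042, Hpgd from -0.20 to 0.11 and Ptger3 from -0.35 to 0.041, and in cells without Nr4a3 and Fosl1 UMIs Ptgs2 was 0.017 and Hpgd 0.048. By Cd44, Ptges ranged from -0.17 to 0.029 with 1 mouse left out. By Nr4a3 and Fosl1, library size alone gave -0.015 for Ptgis and -0.038 for Ptger3, and stricter gates -0.083 for Ptger3.

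Over all genes, other counts that differed by more than 1.5 times were, between regulatory cells and preadipocytes, 2051 without mouse 2, 2293 without mouse 3 and 2175 thinned. By Krtdap they were 1272 with DESeq2 and 1682 in cells without Nr4a3 and Fosl1 UMIs. By Cd44 they were 1057 without mouse 2, 1215 without mouse 3, 900 thinned and 736 with DESeq2, and by Nr4a3 and Fosl1 1542 without mouse 3, 1492 thinned and 1208 with DESeq2. Library size alone shifted the split of higher and lower calls by Nr4a3 and Fosl1 from 1394 and 998 to 844 and 2360, with the median of all genes at -0.11, by Cd44 from 1385 and 684 to 922 and 1293, and by Krtdap from 1235 and 1408 to 1829 and 1195.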

Other observations

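The 7853 cells that met no gate were not tested against any group. They held Ptgs2 at 425, 538 and 622 CPM in mice 1, 2 and 3, between the levels of progenitors and preadipocytes. Ptgs1 stood at 9.82, 6.997 and 12.2 CPM in them and Ptgis at 66.0, 82.4 and 72.1 CPM. Ptgfr stood at 3.21, 3.22 and 3.76 CPM, beside 1.96, 3.12 and 3.61 CPM in the preadipocytes. These values rest on 67, 52 and 81 UMIs against 36, 57 and 49. In mice 2 and 3 they were nearly alike, and only in mouse 1 did they lie well apart. The cells that met no gate held 41.5% of the Ptgfr UMIs.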
